A study of Mus musculus with 6 samples.

Results

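The 10 genes described here encode enzymes that break down the branched-chain amino acids leucine, isoleucine and valine: Bckdha, Bckdhb, Dbt, Bckdk, Ivd, Mccc1, Mccc2, Acadsb, Hibch and Hibadh. They were chosen by symbol from the 55450 genes of the deposited table, all 10 were found once, and all 10 were among the 14539 genes that passed the filter on low counts. The tissue was the left lobe of the liver of 6 mice of strain C57BL/J, as the labels spell it, aged 10 weeks. In the 3 knockout (KO) mice both alleles of LKB1, the kinase encoded by Stk11, were flanked by loxP sites (LKB1 fl/fl), and the 3 wild-type (WT) mice had normal alleles. All 6 mice were injected with AAV8 Cre, an adeno-associated virus that delivers the Cre recombinase, at 6 weeks of age. The livers were taken 4 weeks after that, and the virus and Cre are thus shared by KO and WT. The promoter that drives Cre is not given in the sources used here, and the whole tissue was sequenced, so RNA of cells other than hepatocytes is included. The comparison of KO with WT asks how the transcripts of this pathway differ in liver where LKB1 was targeted by Cre. Some Stk11 RNA remained in the KO livers, as given below.

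Branched-chain amino acids first lose their amino group to a transaminase, a step that takes place mostly outside hepatocytes. The resulting ketoacids are committed to oxidation by the mitochondrial branched-chain ketoacid dehydrogenase complex (BCKDH), which is highly active in liver. A dedicated kinase phosphorylates and inhibits the complex and a phosphatase restores its activity. The products then follow separate routes for leucine, isoleucine and valine to acetyl-CoA, ketone bodies and propionyl-CoA.

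The libraries held between 47659122 and 56147667 expected counts, and each member had at least 485 counts in every library. Stk11 checked the labels, with 22.1, 14.4 and 11.4 CPM (counts relative to library size, with TMM scaling) in KO 1 to 3 and 64.2 to 69.7 CPM in WT. It fell by 2.06 ± 0.25 on the log2 scale (standard error, SE; adjusted p = 0.0167). The adjusted p-value was between 0.0607 and 0.104 when KO 2, KO 3, WT 2 or WT 3 was left out. Replicate 1 of each group had Xist counts and at most 6 counts over 4 Y-linked genes, whereas the other 4 libraries had 6146 or more Y-linked counts and at most 16 of Xist. The labels do not give sex, so results are also given for KO and WT 2 and 3 (the Y-positive libraries, 2 against 2) and for KO 1 and WT 1 (the Xist pair, 1 against 1, no test). KO 1 also kept the most Stk11 of the KO libraries. The log2 ratio of Stk11 was -1.57 in the Xist pair and -2.38 in the Y-positive libraries. Where these subsets differ, the state (Xist or Y-linked counts) and the remaining Stk11 cannot be told apart.

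Hepatocyte and endothelial marker lists moved with the group. The summed level of 7 hepatocyte genes was 26241 to 82386 CPM in KO and 99487 to 142111 CPM in WT, with 6 of the 7 lower in every KO than in every WT library. Summed endothelial markers (8 genes) were at 101 to 161 CPM in KO and 191 to 263 CPM in WT, with 7 of 8 separated in this way. Of all genes tested 15.5% were lower in every KO than in every WT library. The sums overlapped for 8 macrophage markers (70.1 to 167 CPM in KO and 105 to 142 CPM in WT), 8 stellate cell markers (130 to 257 and 199 to 415 CPM) and 6 bile duct markers (25.0 to 74.9 and 39.6 to 73.1 CPM). In these lists 0 genes were at 0 in all libraries. An unadjusted p-value under 0.05 in edgeR was reached by 3 hepatocyte genes, 7 endothelial genes and 0 of the others. Of all genes tested 26.3% reached it. Fewer cells of a type and less RNA per cell cannot be told apart in whole tissue, and the part of these shifts in the results below was not tested.

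Bckdha, Bckdhb and Dbt, which encode subunits of the BCKDH complex, and the leucine enzymes Ivd and Mccc1 were higher in every KO library than in every WT library. For Bckdk, the kinase of the complex, for Mccc2, and for the isoleucine and valine enzymes Acadsb, Hibch and Hibadh the groups overlapped. Mccc1, 1.52-fold higher in KO, alone passed an adjusted p-value of 0.05 in edgeR. DESeq2 called 4 members as higher (Bckdhb, Dbt, Ivd and Mccc1) and 0 as lower, against 8.74% and 7.01% of all genes. In edgeR 4 members had an unadjusted p-value under 0.05, as had 26.3% of all genes. Of all 14539 genes 2.15% were called as higher and 1.22% as lower in edgeR, beside 1 and 0 of the 10 members. Scaling by library size alone gave 380 higher and 131 lower calls over all genes in place of 313 and 177. Non-overlapping groups with KO above WT were seen for 5 of 10 members and for 16.9% of all genes, and with KO below WT for 0 members and 15.5% of all genes. The median log2 difference (KO minus WT) of the members was 0.26, against 0.01 over all genes tested.

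**Figure D1:**
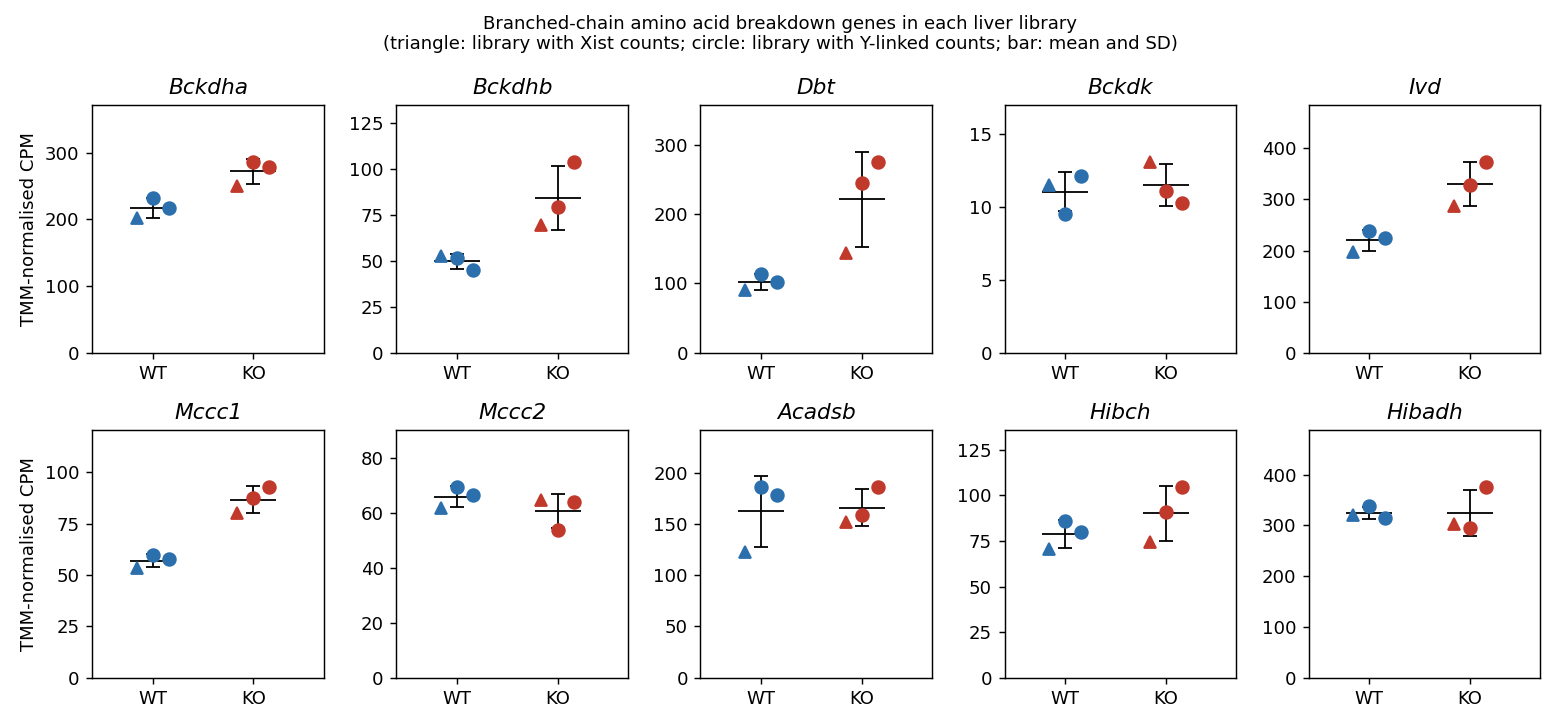
Normalised level of each of the 10 genes in the 6 liver libraries (vertical axis, TMM-normalised CPM from 0; horizontal axis, group), with triangles for the libraries with Xist counts, circles for those with Y-linked counts, and the group mean with its SD. For Bckdha, Bckdhb, Dbt, Ivd and Mccc1 every KO point lies above every WT point, and for the other 5 genes the points overlap.

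Promoter windows from RefSeq (build GRCm38.p6), which run from 250 bases before to 50 bases after an annotated start, were matched to 9 of the 10 genes by symbol. These gave 10 windows, because Bckdhb had 2. Dbt had none. The windows of Bckdha, Bckdhb (the upstream start), Ivd and Mccc1 are shown because all KO libraries lay above all WT libraries for these genes, and that of Mccc2 because it encodes the partner subunit of Mccc1 and the groups overlapped for it. The window of Bckdha lies at chr7:25658712-25659011, minus strand, that of Bckdhb at chr9:83924887-83925186, plus strand, Ivd at chr2:118861744-118862043, plus strand, Mccc1 at chr3:36000629-36000928, minus strand, and Mccc2 at chr13:100015590-100015889, minus strand. Each is printed 5′ to 3′ on the strand of the gene, with capitals for the CCAAT box and for the GC box (letters GGGCGG), each on either strand. A CCAAT box on the other strand reads ATTGG. Bckdha has neither motif and no capitals. The start of Bckdha in GENCODE, 25658981 on the minus strand, lies inside its window. Most of that window is thus within the gene as annotated there, unlike the other windows shown.
Bckdha: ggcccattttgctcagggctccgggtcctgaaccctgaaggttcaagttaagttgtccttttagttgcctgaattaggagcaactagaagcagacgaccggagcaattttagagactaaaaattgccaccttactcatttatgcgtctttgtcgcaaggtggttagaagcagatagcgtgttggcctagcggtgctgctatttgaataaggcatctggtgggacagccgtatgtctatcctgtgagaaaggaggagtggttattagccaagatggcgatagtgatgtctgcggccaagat
Bckdhb: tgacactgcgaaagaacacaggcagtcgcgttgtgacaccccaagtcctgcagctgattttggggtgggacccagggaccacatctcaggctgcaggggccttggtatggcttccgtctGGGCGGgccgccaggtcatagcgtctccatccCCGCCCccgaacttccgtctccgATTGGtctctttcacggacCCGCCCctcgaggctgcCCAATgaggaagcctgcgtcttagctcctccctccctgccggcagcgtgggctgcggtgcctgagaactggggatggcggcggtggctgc
Ivd: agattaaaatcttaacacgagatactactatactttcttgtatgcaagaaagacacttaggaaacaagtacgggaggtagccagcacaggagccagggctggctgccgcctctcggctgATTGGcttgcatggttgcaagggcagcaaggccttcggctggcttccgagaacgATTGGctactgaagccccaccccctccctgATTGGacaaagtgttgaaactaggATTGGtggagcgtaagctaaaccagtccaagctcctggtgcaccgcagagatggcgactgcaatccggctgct
Mccc1: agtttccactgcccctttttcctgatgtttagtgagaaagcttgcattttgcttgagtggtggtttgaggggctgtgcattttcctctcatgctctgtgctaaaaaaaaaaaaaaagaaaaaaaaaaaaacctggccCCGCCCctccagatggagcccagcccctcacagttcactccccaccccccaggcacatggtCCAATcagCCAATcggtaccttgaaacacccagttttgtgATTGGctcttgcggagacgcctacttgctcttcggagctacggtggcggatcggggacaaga
Mccc2: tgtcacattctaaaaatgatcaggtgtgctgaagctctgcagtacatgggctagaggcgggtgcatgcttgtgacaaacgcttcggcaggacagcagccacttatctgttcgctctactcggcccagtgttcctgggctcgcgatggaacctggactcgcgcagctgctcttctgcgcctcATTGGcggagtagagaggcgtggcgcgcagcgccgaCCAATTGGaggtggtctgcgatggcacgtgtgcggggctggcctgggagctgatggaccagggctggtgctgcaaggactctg

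The window of Ivd held 4 CCAAT boxes, at -131, -77, -47 and -23 from the annotated start. Those of Mccc1 and Mccc2 held 3 each, of which 2 in Mccc2 overlap because the letters are shared between the strands. Bckdhb had 2 CCAAT boxes and 3 GC boxes in the window shown. Acadsb and Hibch had no CCAAT box but 5 and 6 GC boxes. Over all 10 windows 7 held a CCAAT box, against 37.4% of the 32851 promoter windows of the RefSeq table, and 5 held a GC box, against 35.7%. The 7 include both windows of Bckdhb. They also include those of Bckdk, Mccc2 and Hibadh, for which the groups of libraries overlapped. The cyclic AMP response element TGACGTCA, the NR4A letters AAAGGTCA, the oestrogen-related receptor letters TCAAGGTCA and the ATF4 letters TGATGNAA were searched on both strands and matched in 0 of the 10 windows. The shares of all windows that held them were 1.79%, 1.51%, 0.423% and 3.97%. The shorter run TGACG, which is part of TGACGTCA, matched only in the window of Acadsb and in 20.8% of all windows. A match is a run of letters and not a measured site, and no match says only that the letters are not in this window.

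Bckdha and Bckdhb encode the alpha and beta subunits of the decarboxylase of BCKDH, which removes the carboxyl group of the ketoacid. Bckdha (ENSMUSG00000060376.7, GRCm38 chromosome 7, 25629946 to 25658981, minus strand) was at 250, 286 and 279 CPM in KO 1 to 3 and 202, 232 and 217 CPM in WT 1 to 3. The lowest KO library stood only slightly above the highest WT library. Its log2 difference was 0.32 ± 0.15 (SE), a 1.25-fold difference that did not pass the threshold (adjusted p = 0.215). Exons of B3gnt8 on the other strand share 1171 nt with Bckdha, and use of strand in the counting is not given, but B3gnt8 had at most 0.237 CPM in any library.

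Bckdhb (ENSMUSG00000032263.14, chromosome 9, 83925145 to 84124240, plus strand) was at 69.6, 79.3 and 104 CPM in KO and 52.8, 51.7 and 45.2 CPM in WT. The WT libraries were close together and KO 3 was highest. Its mean was 84.2 ± 17.6 CPM in KO and 49.9 ± 4.09 CPM in WT (SD, n = 3), with a log2 difference of 0.75 ± 0.17 (SE). The adjusted p-value was 0.0640 over 6 libraries and 0.0121 within the Y-positive libraries.

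Dbt encodes the transacylase core of BCKDH, which carries the acyl group on lipoic acid. It showed the largest difference of the 10 genes. Dbt (ENSMUSG00000000340.10, chromosome 3, 116513070 to 116549981, plus strand) was at 144, 245 and 275 CPM in KO and 91.0, 113 and 102 CPM in WT. KO 1 was well below KO 2 and KO 3 but still above all WT libraries. The SD over the KO libraries was 68.4 CPM around a mean of 221 CPM, and the log2 difference was 1.12 ± 0.26 (SE, adjusted p = 0.0635). It was 1.26 with an adjusted p-value of 0.00311 in the Y-positive libraries. In the Xist pair the log2 ratio was 0.67. The interaction of group with this state had an unadjusted p-value of 0.0472 and an adjusted p-value of 0.234, so a difference between the subsets did not pass the threshold.

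Bckdk encodes the kinase that phosphorylates the alpha subunit and inhibits the complex. Bckdk (ENSMUSG00000030802.14, chromosome 7, 127904082 to 127910221, plus strand) was at 13.1, 11.1 and 10.3 CPM in KO and 11.5, 9.55 and 12.1 CPM in WT. The groups overlapped, and the log2 difference was 0.06 ± 0.16 (SE, adjusted p = 0.849). Of the other proteins of this step, Dld, the dihydrolipoamide dehydrogenase subunit shared with other dehydrogenase complexes, was at 150, 233 and 254 CPM in KO and 128 to 153 CPM in WT. Its log2 difference was 0.57 ± 0.22 (adjusted p = 0.164) over 6 libraries and 0.79 (adjusted p = 0.0141) in the Y-positive libraries. Ppm1k, the phosphatase that reactivates the complex, was at 177, 68.4 and 86.4 CPM in KO and 106, 120 and 109 CPM in WT. KO 1 was thus above and KO 2 and KO 3 below all WT libraries. Its log2 difference was -0.01 ± 0.34 (adjusted p = 0.983) over 6 libraries and -0.57 (adjusted p = 0.0375) in the Y-positive libraries, while the log2 ratio in the Xist pair was 0.73. The interaction had an adjusted p-value of 0.0764.

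The balance of the kinase transcript against those of its substrate complex was taken within each library as the log2 CPM of Bckdk minus the mean log2 CPM of Bckdha, Bckdhb and Dbt. It was -3.37, -3.98 and -4.26 in KO and -3.10, -3.52 and -3.03 in WT. KO 1 lay within the range of WT. The means were -3.87 ± 0.46 and -3.22 ± 0.27 (SD, n = 3), a difference of -0.65 with p = 0.2 in a two-sided exact permutation test, in which 3 against 3 cannot go below 0.1. Against Ppm1k the kinase was at -3.74, -2.61 and -3.06 in KO and -3.20, -3.63 and -3.16 in WT, with overlapping groups and p = 0.7 in the same exact permutation test.

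**Figure D2:**
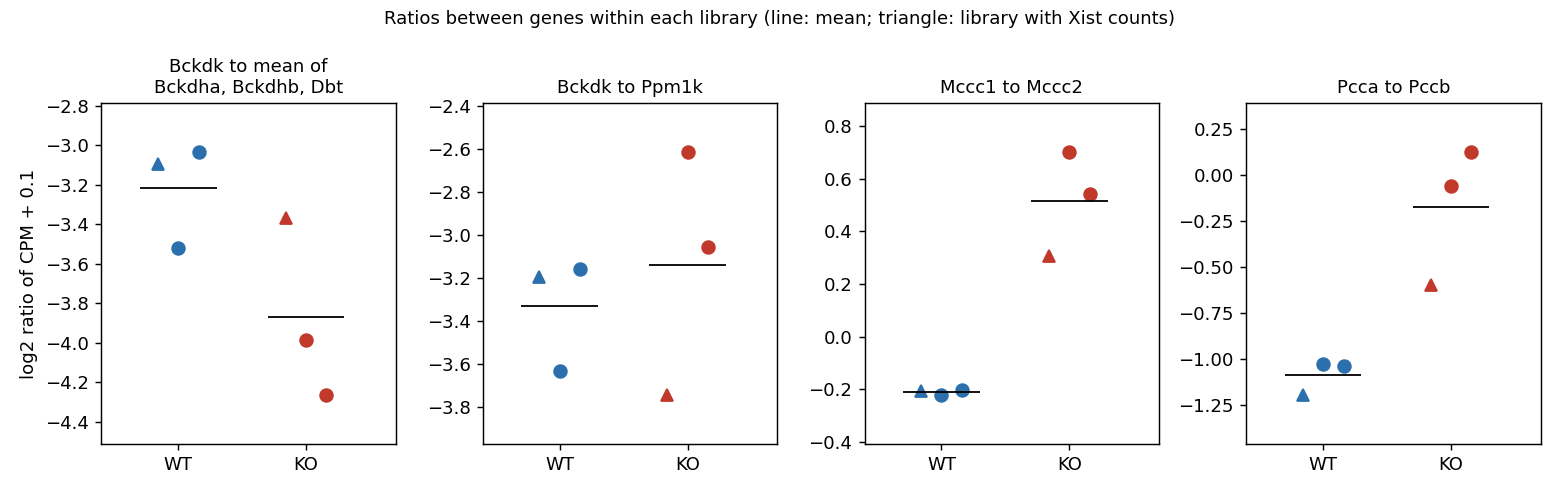
Log2 ratios of CPM (with 0.1 CPM added) between genes within each library (vertical axis) for WT and KO (horizontal axis), with 1 point per library, triangles for libraries with Xist counts and lines for group means. The groups overlap for both ratios of Bckdk and are separate for Mccc1 to Mccc2, at 0.31 to 0.70 in KO and near -0.21 in WT, and for Pcca to Pccb.

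In the leucine route, Ivd encodes isovaleryl-CoA dehydrogenase, which acts directly after BCKDH. Ivd (ENSMUSG00000027332.11, chromosome 2, 118861954 to 118882909, plus strand) was at 287, 328 and 373 CPM in KO and 197, 238 and 224 CPM in WT. Every KO library was above the WT range. The log2 difference was 0.58 ± 0.17 (SE). The adjusted p-value was 0.0951 over 6 libraries and 0.0312 in the Y-positive libraries.

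Mccc1 and Mccc2 encode the alpha and beta subunits of methylcrotonyl-CoA carboxylase, the step after Ivd. The alpha subunit carries the biotin cofactor. Mccc1 (ENSMUSG00000027709.9, chromosome 3, 35959312 to 36000678, minus strand) was at 79.9, 87.3 and 92.9 CPM in KO and 53.6, 59.6 and 57.7 CPM in WT. The spread within each group was small beside the gap between them. Its mean was 86.7 ± 6.50 CPM in KO and 57.0 ± 3.05 CPM in WT (SD, n = 3), and it rose by 0.61 ± 0.12 on the log2 scale (SE, adjusted p = 0.0470). The log2 ratio was 0.62 in the Y-positive libraries and 0.58 in the Xist pair. Antisense genes overlap Mccc1, of which Gm15952 had at most 0.444 CPM and Mccc1os at most 0.257 CPM. The call was lost when KO 2, KO 3, WT 1, WT 2 or WT 3 was left out, with adjusted p-values from 0.109 to 0.215 and log2 differences from 0.55 to 0.64. It was also lost with DESeq2's size factors (adjusted p = 0.0506) and without the filter (adjusted p = 0.0688).

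Mccc2 (ENSMUSG00000021646.9, chromosome 13, 99948530 to 100015639, minus strand) was at 64.6, 53.7 and 63.8 CPM in KO and 61.9, 69.5 and 66.4 CPM in WT. The groups overlapped, and the log2 difference was -0.12 ± 0.13 (SE, adjusted p = 0.575). The log2 ratio of Mccc1 to Mccc2 within a library was 0.31, 0.70 and 0.54 in KO and -0.21, -0.22 and -0.20 in WT. The difference of 0.73 had p = 0.1 in a two-sided exact permutation test, which is the smallest that 3 against 3 can give, and this ratio was chosen after the values were seen. Per kilobase of the principal transcript, the level of Mccc1 was below that of Mccc2 in WT, at 21.8 to 24.3 against 29.1 to 32.7 CPM per kb. In KO it was above, at 32.6 to 37.8 against 25.3 to 30.4 CPM per kb. Auh, the hydratase of the next leucine step, was at 26.5 to 34.7 CPM in KO and 26.3 to 29.9 CPM in WT.

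The 3 members of the isoleucine and valine routes showed no separation of the groups. Acadsb, the short and branched chain acyl-CoA dehydrogenase of isoleucine breakdown (ENSMUSG00000030861.15, chromosome 7, 131410601 to 131448944, plus strand), was at 152, 159 and 186 CPM in KO and 122, 186 and 178 CPM in WT. WT 1 was the lowest of the 6. The log2 difference was 0.03 ± 0.20 (SE, adjusted p = 0.936). Hibch, the hydrolase that frees 3-hydroxyisobutyrate in valine breakdown (ENSMUSG00000041426.12, chromosome 1, 52844929 to 52920986, plus strand), was at 74.6, 91.2 and 105 CPM in KO and 70.9, 85.8 and 80.0 CPM in WT. KO 2 and KO 3 were above the WT range and KO 1 within it, with a log2 difference of 0.19 ± 0.16 (SE, adjusted p = 0.486). Hibadh, the dehydrogenase that follows it (ENSMUSG00000029776.11, chromosome 6, 52546228 to 52640389, minus strand), was at 303, 294 and 376 CPM in KO and 320, 338 and 314 CPM in WT. KO 1 and KO 2 were below and KO 3 above all WT libraries, and the log2 difference was 0.00 ± 0.16 (SE, adjusted p = 0.998). Processed pseudogenes similar to Hibch (Gm7512, 92.6% identical over 1124 nt) and Hibadh (Gm11225, 91.7% over 855 nt) had 0 CPM and at most 0.0197 CPM in any library.

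Per kilobase of principal transcript, the order of levels in WT was Hibadh (172 to 185 CPM per kb), Bckdha (106 to 122), Ivd (53.8 to 65.0) and Hibch (38.7 to 46.9), with no overlap between neighbours. Bckdhb, Mccc2, Dbt, Acadsb and Mccc1 followed, with means from 33.9 to 23.2 CPM per kb and overlapping ranges between each neighbouring pair. Bckdk was lowest, at 2.80 to 3.57 CPM per kb. Among the genes tested, the level of Bckdk stood at the 48.8th percentile and those of the other 9 between the 85.4th and the 97.5th. In KO the range of Dbt, 43.7 to 83.3 CPM per kb, lay above those of Mccc2 (25.3 to 30.4) and Acadsb (25.0 to 30.6), with which it overlapped in WT.

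Within the 4 Y-positive libraries, 4 of 10 members were called as higher (Bckdhb, Dbt, Ivd and Mccc1) and 0 as lower. Over all 14546 genes tested there, 17.2% were called as higher and 16.1% as lower. In the Xist pair the log2 ratios of these 4 genes were 0.40, 0.67, 0.54 and 0.58. A positive sign was fixed in advance, because every KO library lay above every WT library for these genes. Leaving out KO 1 alone gave the same 4 calls among the members, with adjusted p-values of 0.00943, 0.00255, 0.0184 and 0.00744. In that fit 16% of all 14833 genes tested were called as higher and 14.2% as lower. The interaction of group with this state was called for 0 members and for 2.9% of all genes, and its unadjusted p-value was under 0.05 for Dbt alone. Bckdha, Ivd and Mccc1 had nearly equal log2 ratios in both subsets, at 0.33 and 0.31, 0.60 and 0.54, and 0.62 and 0.58. Acadsb, Bckdk, Mccc2 and Hibadh had opposite signs in the subsets, all between -0.21 and 0.31.

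**Figure D3:**
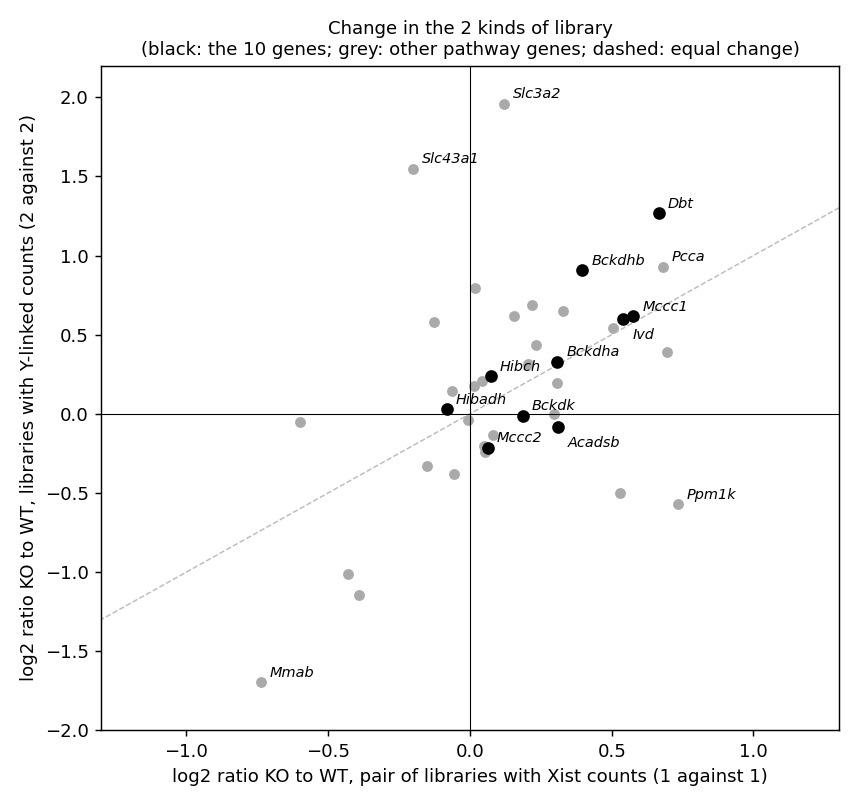
Log2 ratio of KO to WT in the pair of libraries with Xist counts (horizontal axis, 1 against 1) and in the Y-positive libraries (vertical axis, 2 against 2) for the 10 genes (black) and other pathway genes tested (grey), with a dashed line of equal change. Ivd, Mccc1 and Bckdha lie near the line, Dbt and Bckdhb above it, and Ppm1k and Slc43a1 have opposite signs.

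A list of 31 other genes of the pathway covers transport, transamination, the remaining enzymes, cofactors and electron transfer. Of these 30 were tested and 0 passed the threshold in edgeR, in either direction, while 11 had an unadjusted p-value under 0.05, beside 26.3% of all genes. DESeq2 called 4 as higher and 3 as lower, beside 8.74% and 7.01% of all genes. The median log2 difference was 0.12, and the groups did not overlap for 6 genes with KO above WT and 5 with KO below, beside 16.9% and 15.5% of all genes. The 6 were Slc3a2, Pcca, Mcee, Btd, Etfa and Etfb, and the 5 included Slc25a44, Acad8, Mmab and Hlcs. Without KO 1, edgeR called 7 as higher and 5 as lower, beside 16% and 14.2% of all genes. In the Y-positive libraries 8 were called as higher and 5 as lower, beside the 17.2% and 16.1% of all genes. The 8 were Slc3a2, Slc43a1, Bcat2, Dld, Hsd17b10, Pcca, Mcee and Etfa, and the 5 included Slc43a2, Ppm1k, Mmab and Hlcs. Slc25a44, a mitochondrial carrier of branched-chain amino acids, and Slc43a2, a transporter, were named after their values were seen.

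For entry, Slc3a2, the heavy chain of the large neutral amino acid transporters, was at 42.9, 191 and 88.5 CPM in KO and 33.2 to 39.5 CPM in WT (log2 difference 1.60 ± 0.49, adjusted p = 0.106). KO 2 was far above the other libraries. Slc43a1, a transporter of the same amino acids, was at 6.66, 11.8 and 13.0 CPM in KO and 7.67, 4.05 and 4.30 CPM in WT (adjusted p = 0.138). KO 1 was below WT 1 whereas KO 2 and KO 3 were above all WT libraries. Of the transaminases, Bcat1 had 2 counts in KO 1 and 0 in the other 5 libraries, which allows up to 0.0641 CPM at a floor of 3 counts. Bcat2, the mitochondrial form, was at 16.8 to 17.3 CPM in KO and 11.2 to 18.3 CPM in WT, with a log2 difference of 0.31 ± 0.20 (adjusted p = 0.374).

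**Figure D4:**
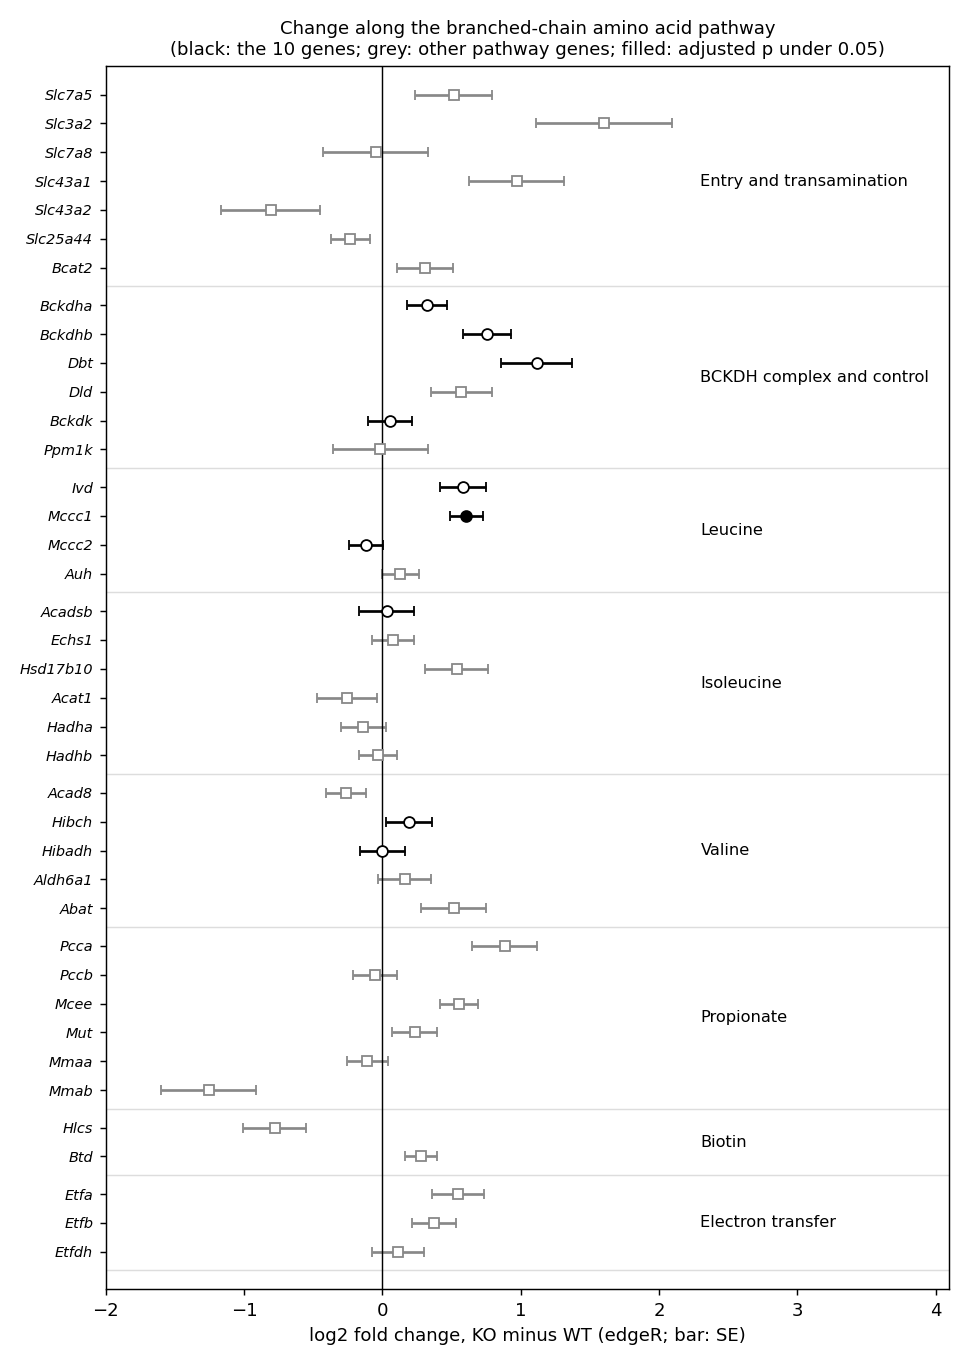
Log2 fold change of KO against WT (horizontal axis, edgeR, bars show the SE) for the 10 genes (black) and other pathway genes tested (grey), arranged by pathway step from top to bottom. The symbol is filled where the adjusted p-value is under 0.05, which among those plotted is the case for Mccc1 alone, at 0.61.

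Isoleucine and valine breakdown both yield propionyl-CoA, which a carboxylase with a biotin-bearing alpha subunit (Pcca) and a beta subunit (Pccb) converts further. Pcca was at 108, 127 and 192 CPM in KO and 67.1, 86.3 and 77.5 CPM in WT, with a log2 difference of 0.88 ± 0.24 (adjusted p = 0.0818). Pccb, chosen after its values were seen, was at 163, 132 and 176 CPM in KO and 154 to 176 CPM in WT, with a log2 difference of -0.06 ± 0.16. The biotin-bearing subunit of this carboxylase thus separated the groups and its partner did not, as for Mccc1 and Mccc2. The log2 ratio of Pcca to Pccb was -0.60, -0.06 and 0.12 in KO and -1.20, -1.03 and -1.04 in WT, a difference of 0.91 (two-sided exact permutation p = 0.1, the smallest possible, for a ratio chosen after the values were seen). Mcee, the epimerase of the next step, was at 38.1, 44.0 and 50.8 CPM in KO and 30.1 to 30.3 CPM in WT (log2 difference 0.55 ± 0.13, adjusted p = 0.0687). Mmab, an enzyme of cobalamin cofactor synthesis chosen after its values were seen, was at 22.8, 7.90 and 14.8 CPM in KO and 34.9 to 38.1 CPM in WT (-1.26 ± 0.35, adjusted p = 0.0865).

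Hlcs, the ligase that attaches biotin to carboxylases, was at 11.8, 6.25 and 9.13 CPM in KO and 15.2 to 15.9 CPM in WT, with a log2 difference of -0.78 ± 0.23 (adjusted p = 0.0967). Every KO library lay below every WT library. Btd, which recycles biotin, was at 76.2 to 80.0 CPM in KO and 59.8 to 69.4 CPM in WT (0.28 ± 0.11, adjusted p = 0.183). Etfa and Etfb, the subunits of the flavoprotein that takes electrons from Ivd and Acadsb, had log2 differences of 0.55 ± 0.19 and 0.37 ± 0.16 (adjusted p = 0.132 and 0.187). For both, the KO libraries were above the WT libraries.

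Of the remaining genes, Hsd17b10, a dehydrogenase of isoleucine breakdown, was at 100, 136 and 160 CPM in KO and 70.4, 106 and 97.0 CPM in WT (log2 difference 0.54 ± 0.23, adjusted p = 0.195). Acat1, the thiolase that ends this route, was at 284 to 445 CPM in KO and 391 to 495 CPM in WT (-0.26 ± 0.22, adjusted p = 0.484). Acad8, the isobutyryl-CoA dehydrogenase of the valine route, was at 67.2, 50.5 and 62.8 CPM in KO and 69.4 to 77.4 CPM in WT (-0.26 ± 0.14, adjusted p = 0.288). Abat, a transaminase that acts on a product of valine breakdown, was at 624, 478 and 799 CPM in KO and 385 to 490 CPM in WT (0.52 ± 0.23, adjusted p = 0.215). Acad8 was lower in every KO library than in every WT library, and the groups overlapped for the other 3 genes.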

How the data were processed

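Poly(A) RNA from 6 livers, 1 library per mouse, was read as pairs of 76 nt, as the labels' protocols say. The authors deposited expected counts per gene, and the submitters' processing notes list bcl2fastq 2.17, cutadapt 1.18, STAR 2.7.0f and RSEM 1.3.1 and the build mm9. All 55450 gene identifiers with their versions match GENCODE M21 on GRCm38, whose positions are given. Use of strand is not given in the sources used here.

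Expected counts were rounded, filtered with filterByExpr by group, scaled by TMM (trimmed mean of M-values) and tested with edgeR 4.0.16 (quasi-likelihood, group as the only term, R 4.3.3), with Benjamini-Hochberg adjustment over 14539 genes and a threshold of 0.05. The log2 difference is the fitted log2 fold change, and its SE is that value divided by the root of the F statistic. The interaction fit left 2 residual degrees of freedom. The test was also run on simulated data, and the outcome is not reported here. A gene that did not pass the threshold is not shown to be unchanged. Alternatives used DESeq2 1.42.0, limma 3.58.1 (voom), other scalings and filters, a block, and fewer libraries. Lengths are those of the APPRIS principal transcript. Each p-value from all libraries rests on 3 mice a group, and those from fits with fewer libraries rest on fewer mice.

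The members and lists were chosen with earlier results of these data known. Named genes are the members, Stk11, Bcat1, Bcat2, Ppm1k, pathway genes past the threshold, and the 2 smallest adjusted p-values of each list group. Mmut and Tf are Mut and Trf in the table. Some list genes count in the totals but are not reported here by name or plotted.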

Additional observations from a re-analysis of the deposited data

Results flagged for a closer look

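The difference between KO and WT was itself different between the Y-positive libraries and the Xist pair for 4 genes named here (edgeR interaction, adjusted p under 0.05), beside 421 of all 14539 genes. For Slc43a1 the interaction was 1.78 on the log2 scale (adjusted p = 0.0256), with log2 ratios of 1.55 in the Y-positive libraries and -0.20 in the Xist pair. For Ppargc1a, whose values are given under the other observations, it was 2.91 (adjusted p = 0.0103), with log2 ratios of 3.91 and 1.00 in these subsets. For Sds and Sdsl, of serine breakdown, it was 2.16 (adjusted p = 0.0234) and 1.94 (adjusted p = 0.0493), with log2 ratios of 3.22 and 2.94 in the Y-positive libraries and 1.06 and 1.02 in the Xist pair. Sds and Sdsl were named after their values were seen. The pair is 1 library against 1, so this test rests on 2 residual degrees of freedom. KO 1 also kept the most Stk11 of the KO libraries, so the state and the remaining Stk11 cannot be told apart here.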

How the results depend on the processing

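Of all genes, 771 were called without the filter, 2290 by DESeq2, 105 with the replicate block, 4847 in the 4 Y-positive libraries and 6 (without WT 2) to 4473 (without KO 1) with 1 library left out, in place of 490. Members called as higher numbered 3 with library size alone, 0 with DESeq2's size factors, 4 by DESeq2, 0 with the replicate block, 4 in the 4 Y-positive libraries, and 0 to 4 with 1 library left out, where only the fit without KO 1 gave any. In the pathway list, DESeq2 called 4 as higher and 3 as lower, the 4 Y-positive libraries 8 and 5, and the fits with 1 library left out 0 to 7 and 0 to 5. Members called as lower were 0 in every one of the 13 alternatives. Bckdha, Bckdhb, Dbt, Ivd, Mccc1 and Hibch kept a positive and Mccc2 a negative log2 fold change in all 13, whereas Bckdk and Acadsb kept their sign in 10 and Hibadh in 5. For Bckdha, Bckdhb, Dbt, Ivd and Mccc1 every KO library lay above every WT library. Leaving libraries out could thus hardly change the sign for these genes. The kinase ratio to the complex stayed below 0 when any library was left out (-0.91 to -0.46), and that to Ppm1k ran from -0.07 (without KO 2) to 0.49 (without KO 1). The cause of these differences was not tested. Same-numbered KO and WT libraries had correlations of 0.133, 0.0106 and 0.0635 of their deviations across genes, so the numbers were not treated as pairs, and Mccc1 had an adjusted p-value of 0.0915 with the block. Each member had at least 485 counts in every library, against a floor of 3, so counting error is small beside the spread between mice.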

Other observations

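BCKDH has the same architecture as the pyruvate and oxoglutarate dehydrogenase complexes. Of 6 subunit genes of these complexes 4 had an unadjusted p-value under 0.05 in edgeR, beside 26.3% of all genes. Of the 6, 0 passed the threshold after adjustment. The smallest adjusted p-value was that of Dlst, and the median log2 fold change was 0.54. Ogdh, the oxoglutarate decarboxylase, was at 252, 650 and 792 CPM in KO and 188 to 218 CPM in WT (1.46 ± 0.40, adjusted p = 0.0852). Dlst, its transacylase, was at 255, 427 and 477 CPM in KO and 170 to 208 CPM in WT (1.01 ± 0.26, adjusted p = 0.0755). Both were separated between the groups, with KO 1 closest to WT, as for Dbt. Among the pyruvate dehydrogenase kinases, the relatives of Bckdk, Pdk2 was higher (0.64 ± 0.16, adjusted p = 0.0735) and Pdk1 lower (-1.11 ± 0.39, adjusted p = 0.141) in every KO library.

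Of 22 enzymes that break down other amino acids, 9 were called as higher and 0 as lower, beside 2.15% and 1.22% of all genes. Their median log2 fold change was 1.06. This list, too, was chosen with earlier results of these data known. Hgd, of tyrosine breakdown, was at 1602 to 2553 CPM in KO and 500 to 548 CPM in WT (1.90 ± 0.25, adjusted p = 0.0194). Ftcd, of histidine breakdown, was at 690 to 1029 CPM in KO and 303 to 367 CPM in WT (1.38 ± 0.21, adjusted p = 0.0281). The other 7 included Tat, Hpd, Uroc1, Aass, Sds and Sdsl, named after their values were seen. Without WT 2 or WT 3 the adjusted p-values of Hgd and Ftcd were between 0.133 and 0.159, and those of Hgd without KO 3 or WT 1 and of Ftcd without KO 2, KO 3 or WT 1 between 0.0509 and 0.112. The difference between this list and the branched-chain genes was not tested. Of 4 regulators, Ppargc1a, a coactivator of mitochondrial and gluconeogenic genes, alone passed the threshold, at 24.7, 75.2 and 76.4 CPM in KO and 4.28 to 12.3 CPM in WT (2.98 ± 0.57, adjusted p = 0.0446). Leaving out KO 2, KO 3, WT 2 or WT 3 gave it an adjusted p-value between 0.118 and 0.211. Ppara, a receptor that controls fatty acid oxidation, was at 65.1, 19.3 and 30.5 CPM in KO and 78.3 to 98.5 CPM in WT (-1.24 ± 0.42, adjusted p = 0.125).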
